A study of Mus musculus with 2 samples.

Results

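A set of 40 genes for the non-collagen extracellular matrix was followed in macrophages grown from mouse marrow with and without Tipe1: glycoproteins, proteoglycans and the enzymes that modify and crosslink matrix fibres. They were taken by symbol, and all 40 were found among the 46095 genes of the table. The KO library came from C57BL/6 mice with floxed Tipe1 alleles and LyzM-Cre, a Cre recombinase expressed from the Lyz2 locus in myeloid cells, and is labelled TIPE1-/-. The WT library is labelled wild type, and the design text gives its source as mice with floxed Tipe1 and no Cre. Both cultures were grown for 5 days in DMEM with 100 ng/ml M-CSF, the growth factor that turns marrow progenitors into macrophages. Whether Cre was active in other cells of these cultures was not tested. Each genotype had 1 library, with 11782664 counted reads for WT and 15815956 for KO. No value below therefore has a replicate check, and whether a difference belongs to the genotype or to these 2 cultures cannot be told apart.

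The extracellular matrix is a mesh of secreted proteins that holds tissues together and stores growth factors. Fibroblasts and other stromal cells make most of it. Macrophages degrade and remodel it, and also secrete some components, among them fibronectin, thrombospondin 1 and versican. Glycoproteins such as fibronectin and laminin bind integrins on cells, proteoglycans carry sulfated sugar chains that bind water and growth factors, and lysyl oxidases join collagen and elastin molecules through their lysines.

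Most of these matrix genes were lower in the KO library. Of the 39 genes with reads, 28 were at least 2-fold lower, 0 were at least 2-fold higher and 11 lay within 2-fold, on the log2 scale after adding 0.5 CPM (reads per 1000000 counted reads). Among the 12495 genes whose mean reached 1 CPM, 3.95% were at least 2-fold lower and 2.02% at least 2-fold higher. Over all 21261 genes with at least 1 read, these shares were 3.49% and 1.48%. The median log2 ratio of KO over WT was -1.97 for the 39 matrix genes and 0.01 for the 12495 genes. On the ratio of CPM with no added value, 23 genes were at least 4-fold lower and 15 at least 8-fold lower. The 95% counting interval lay below 1 for 34 genes, above 1 for 3 and held 1 for 2. Of the genes counted as lower, Tgfbi, with a log2 ratio of -1.07, and Nid2, with -1.13, lay nearest the 2-fold limit. Of those within 2-fold, Lox, with -0.77, and Lamc1, with -0.56, lay nearest it on the side of lower values. Elastin (Eln) was listed at 0 in both libraries and has no ratio. Of the 40, 37 reached a mean of 1 CPM, and Eln, Fmod and Mgp did not.

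**Figure D1:**
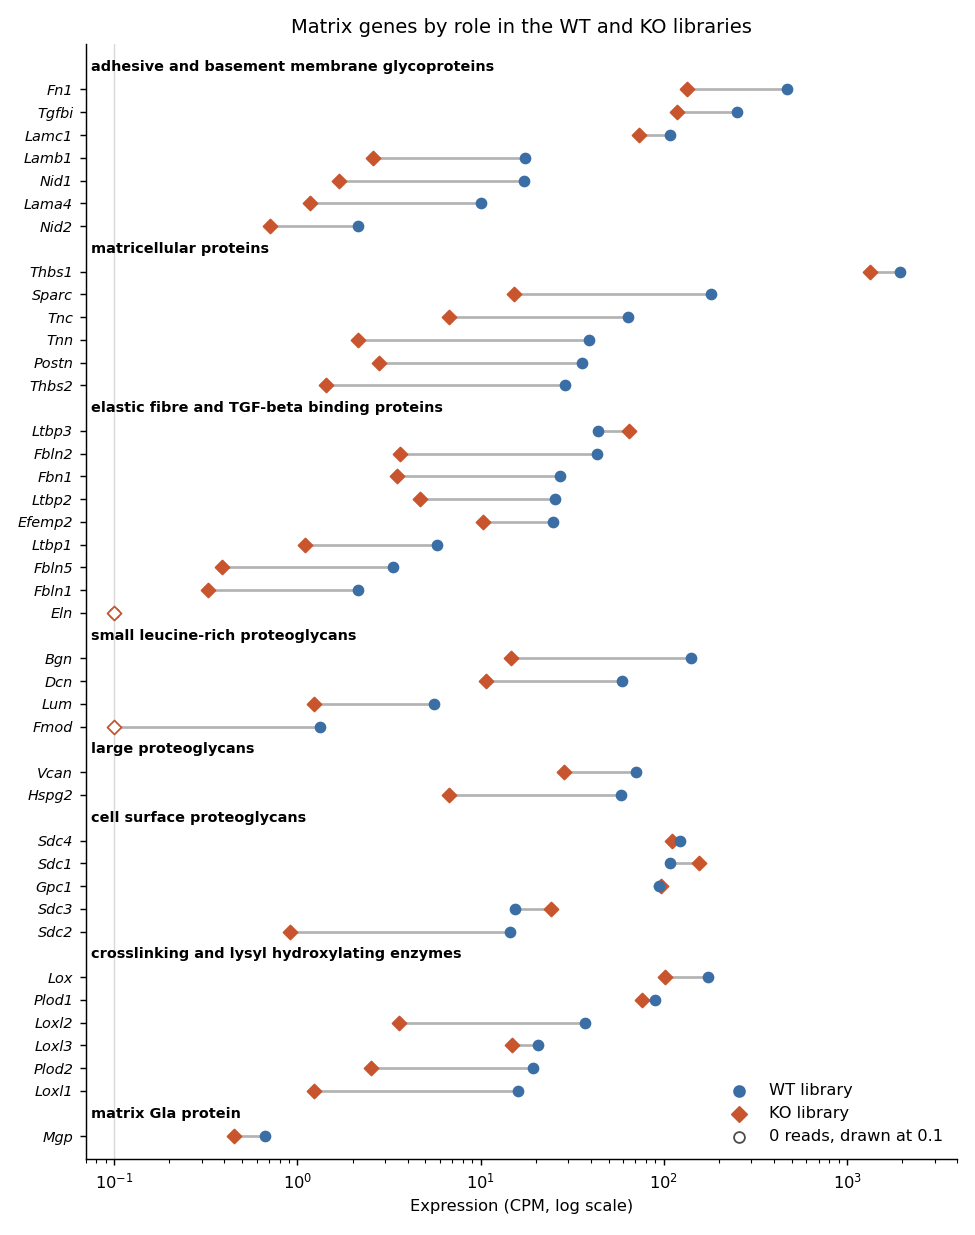
CPM (log axis) of the 40 genes in the WT library (circles) and the KO library (diamonds), grouped by role; open symbols stand for 0 reads and are drawn at 0.1. Most diamonds lie well to the left of their circles, while Thbs1 is the most abundant gene in both libraries and Sdc1, Sdc3 and Ltbp3 lie to the right.

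Markers of stromal cells moved with these genes, and their part in the result was not tested. A list of 16 stromal markers, none of them among the 40 genes, summed to 1690 CPM for WT but 146 CPM for KO, 11.5-fold lower (95% counting interval 11.1 to 12.1). Col1a1 (714 CPM in WT) and Col1a2 (523 CPM), the chains of type I collagen, made up 73.2% of the WT sum. Without them, an alternative chosen after seeing the data, the sums were 453 and 42.4 CPM, 10.7-fold lower (9.86 to 11.6). That WT sum still held other collagen chains, Col3a1 at 135 CPM, Col5a1 at 97.0 CPM and Col6a3 at 35.9 CPM. Of the 15 with reads, 13 were at least 2-fold lower. The exceptions were Thy1 (3.23 CPM in WT and 3.11 in KO) and Fap (2.40 and 1.17 CPM). Tagln was listed at 0 in both libraries, and Lepr had 20 reads in WT and 0 in KO. Acta2, smooth muscle actin, stood at 52.2 CPM in WT and 2.92 CPM in KO. Prrx1, a transcription factor of limb and bone mesenchyme, stood at 39.7 and 2.92 CPM. All 12 macrophage markers had reads, 0 of them were at least 2-fold lower and 1 at least 2-fold higher, and they summed to 23677 CPM in WT and 18532 CPM in KO. The higher one was Adgre1, which encodes F4/80, at 1064 and 2554 CPM. Lyz2, which carries Cre in the KO mice, made up 14958 and 8028 CPM of those sums. In a bulk library, fewer cells of a type and less RNA per cell cannot be told apart. Tnfaip8l1, which encodes TIPE1, had 21 reads in WT and 3 in KO, or 1.74 and 0.194 CPM.

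Matricellular proteins modulate cell attachment rather than build fibres, and 5 of their 6 genes were at least 2-fold lower. Thbs2 (thrombospondin 2, GRCm38 chr17:14665500-14694235) stood at 28.8 CPM in WT and 1.43 CPM in KO, from 348 and 22 reads. It was 20.2-fold lower in KO, with a counting interval of 13.1 to 32.7. Tnn (tenascin N, also called tenascin W, a protein of bone and of tumour stroma, chr1:160085029-160153580) stood at 39.0 and 2.14 CPM and was 18.2-fold lower (12.8 to 26.8). Since their intervals overlap, neither can be ranked above the other. Postn (periostin) was 12.7-fold lower (9.30 to 17.9), at 35.5 against 2.79 CPM in the WT and KO libraries. Sparc, a collagen-binding glycoprotein abundant in bone, had 2187 reads in WT and 234 in KO, or 181 and 15.2 CPM. That is 11.9-fold lower (10.4 to 13.7), an interval that is narrow because of these read counts. Tnc (tenascin C), induced in wounds, stood at 63.8 CPM in WT and 6.74 in KO, 9.46-fold lower (7.70 to 11.7).

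Promoters are shown for Thbs2 and Tnn, whose fold differences by point value were the largest, and for Ltbp2 and Ltbp3, related genes that were lower and higher in KO. Each window runs from 250 bases before to 50 bases after a RefSeq start site on GRCm38.p6, is written 5′ to 3′ on the gene's strand, and has matches to the searched motifs in capitals.
Thbs2, chr17:14694213-14694512, minus strand: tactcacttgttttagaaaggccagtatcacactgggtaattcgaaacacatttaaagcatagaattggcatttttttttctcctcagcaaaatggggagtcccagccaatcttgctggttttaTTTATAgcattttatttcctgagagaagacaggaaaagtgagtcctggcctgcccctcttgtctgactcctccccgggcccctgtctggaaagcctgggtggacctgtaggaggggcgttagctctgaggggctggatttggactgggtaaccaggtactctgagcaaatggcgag
Tnn, chr1:160153526-160153825, minus strand: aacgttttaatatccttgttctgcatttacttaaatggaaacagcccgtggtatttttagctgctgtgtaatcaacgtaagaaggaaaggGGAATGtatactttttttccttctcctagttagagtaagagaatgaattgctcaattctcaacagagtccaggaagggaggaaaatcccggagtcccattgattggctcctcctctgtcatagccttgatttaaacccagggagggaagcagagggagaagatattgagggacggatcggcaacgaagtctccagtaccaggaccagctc
Ltbp2, chr12:84876442-84876741, minus strand: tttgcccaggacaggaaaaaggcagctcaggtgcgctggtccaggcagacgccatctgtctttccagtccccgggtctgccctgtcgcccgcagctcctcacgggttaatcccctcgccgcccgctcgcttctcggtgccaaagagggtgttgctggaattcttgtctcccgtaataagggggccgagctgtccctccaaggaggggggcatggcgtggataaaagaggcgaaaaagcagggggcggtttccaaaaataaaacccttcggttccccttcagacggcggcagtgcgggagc
Ltbp3, chr19:5740650-5740949, plus strand: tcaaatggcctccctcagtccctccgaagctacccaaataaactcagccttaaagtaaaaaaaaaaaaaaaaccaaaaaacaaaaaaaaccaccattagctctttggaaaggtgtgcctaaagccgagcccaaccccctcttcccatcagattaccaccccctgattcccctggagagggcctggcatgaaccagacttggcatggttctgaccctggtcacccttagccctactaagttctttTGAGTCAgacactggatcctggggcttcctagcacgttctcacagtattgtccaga
The capitals in Thbs2 mark a match to the TATA box sequence (TATAAA) on the opposite strand, starting 126 bases before the start site. Those in Tnn mark a TEAD motif (CATTCC) on the opposite strand, starting 160 bases before it, and those in Ltbp3 an AP-1 motif (TGACTCA) on the opposite strand, starting 6 bases before it. Ltbp2 held no match. Matches here and in the shares below were counted at any position of a window, and none was tested as a working promoter element. RefSeq windows were found for 24 of the 40 genes, 31 windows in all. Of the 26 windows of genes at least 2-fold lower, 2 held a TEAD motif (7.69%), 0 an AP-1 motif, 0 a CArG box and 4 a TATA box (15.4%), read on both strands. In all 32851 windows of this length, the shares were 14.7%, 5.20%, 1.63% and 13.6%. Of the 11608 windows of genes whose mean reached 1 CPM, 1393 held the TEAD motif, and the shares of the others were 3.92%, 1.27% and 7.06%. With 26 windows, each of these shares rests on 4 windows or fewer.

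Thbs1 differed from its relative Thbs2. Thbs1 (thrombospondin 1, chr2:118111876-118127133), which binds CD47 and CD36 and activates latent TGF-beta, had 23512 reads in WT and 20512 in KO. It stood at 1947 and 1329 CPM, 1.46-fold lower in KO (1.44 to 1.49) and within the 2-fold limit. The KO over WT ratio of Thbs1 was 13.8 times that of Thbs2 (8.97 to 22.3, exact conditional interval). Per kilobase of exon, Thbs1 was the most abundant of the 40 genes in both libraries, at 321 CPM per kb in WT and 219 in KO. Alone it made up 44.3% of the summed CPM of the 40 genes in WT and 54.7% in KO.

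Adhesive and basement membrane glycoproteins were lower to very different extents. Fn1 (fibronectin, chr1:71585520-71653200), the main integrin ligand of provisional matrix, stood at 471 CPM in WT and 133 CPM in KO. That is 3.53-fold lower (3.36 to 3.71), from 5683 and 2056 reads. Tgfbi, a secreted integrin ligand induced by TGF-beta, stood at 249.2 and 118.4 CPM, 2.10-fold lower (1.98 to 2.23). Both ratios lay nearer to 1 than that of the summed stromal markers. Per kilobase, Tgfbi ranked 2 of 40 genes in WT, at 66.1 CPM per kb, and 4 of 40 in KO, at 31.4.

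The laminin chains, which assemble as an alpha, a beta and a gamma chain into the basement membrane, did not keep step. Lama4 stood at 10.02 CPM in WT and 1.17 CPM in KO, 8.59-fold lower (5.21 to 15.0). Lamb1 stood at 17.4 and 2.59 CPM, 6.71-fold lower (4.76 to 9.66). Lamc1, the gamma chain, was more abundant at 108 and 73.5 CPM, and was 1.47-fold lower (1.36 to 1.60). Its KO over WT ratio was 5.83 times that of Lama4 (3.51 to 10.2) and 4.55 times that of Lamb1 (3.20 to 6.61). Nidogens link laminin to collagen IV. Nid1 stood at 17.1 and 1.69 CPM, 10.2-fold lower (6.75 to 15.9), and the sparser Nid2 had 26 reads in WT and 11 in KO, 3.02-fold lower (1.44 to 6.77).

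Elastic fibre genes were lower apart from Eln itself, which was listed at 0 in both libraries. The annotation used for counting is not given, so an uncounted gene and an unexpressed one cannot be told apart. The same holds for other genes at 0 in both libraries, such as Tagln. Fibrillin 1 (Fbn1), the scaffold of microfibrils, stood at 27.2 CPM in WT and 3.50 CPM in KO, 7.78-fold lower (5.82 to 10.6). Fbln2 (fibulin 2) was 11.9-fold lower (9.04 to 16.0), at 43.3 against 3.63 CPM in WT and KO. Fbln5 and Fbln1 had 40 and 26 reads in WT, and 6 and 5 in KO, so their intervals were wide: 3.59 to 24.6-fold lower for Fbln5 and 2.51 to 22.2-fold for Fbln1. Efemp2 (fibulin 4), needed for lysyl oxidase to reach elastin stood at 24.8 and 10.2 CPM, 2.43-fold lower (1.99 to 2.96). Mgp (matrix Gla protein), an inhibitor of calcification, had 8 reads in WT and 7 in KO, 1.46-fold lower with an interval from 0.463 to 4.73 that holds 1.

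Latent TGF-beta binding proteins tether TGF-beta to microfibrils, and here they moved in both directions. Ltbp2 stood at 25.3 CPM in WT and 4.67 CPM in KO, 5.43-fold lower (4.19 to 7.12). Ltbp1 stood at 5.80 and 1.10 CPM, 5.26-fold lower (3.06 to 9.53). Ltbp3 was higher in KO, at 43.6 CPM in WT and 64.3 in KO, a ratio of 1.47 (1.32 to 1.64) that stays within 2-fold. The KO over WT ratio of Ltbp3 was 8.00 times that of Ltbp2 (6.02 to 10.7) and 7.75 times that of Ltbp1 (4.45 to 14.2).

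Small leucine-rich proteoglycans, which bind collagen fibrils and set their thickness, were all lower. Biglycan (Bgn) stood at 141 CPM in WT and 14.7 CPM in KO, 9.57-fold lower (8.33 to 11.04). Decorin (Dcn), at 59.0 and 10.8 CPM, was 5.49-fold lower (4.63 to 6.54), and the ratio of Dcn was 1.75 times that of Bgn (1.39 to 2.18). Lumican (Lum) had 67 reads in WT and 19 in KO, 4.50-fold lower (2.67 to 7.94). Fibromodulin (Fmod) had 16 reads in WT and 0 in KO. Its counting interval began at 4.93-fold lower, and its WT level was 6.81 times the floor of 3 reads in the KO library. The large proteoglycans were lower as well. Hspg2 (perlecan), the heparan sulfate proteoglycan of basement membranes, stood at 58.5 and 6.74 CPM, 8.67-fold lower (7.05 to 10.8). Vcan (versican), a hyaluronan-binding proteoglycan also made by monocytes, stood at 70.5 and 28.4 CPM, 2.48-fold lower (2.21 to 2.79).

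Of the 5 cell surface proteoglycans in the followed set, 1 was at least 2-fold lower. Sdc2 (syndecan 2, chr15:32920723-33034935), common on mesenchymal cells, stood at 14.4 CPM in WT and 0.907 CPM in KO, 15.9-fold lower (9.21 to 29.6). Sdc3 had a similar WT level, 15.5 CPM, and stood at 24.2 CPM in KO, a ratio of 1.57 (1.31 to 1.88). Sdc1, which carries heparan sulfate on epithelial and plasma cells and on activated macrophages, stood at 108 and 156 CPM, a ratio of 1.44 (1.35 to 1.54). Sdc4, a focal adhesion coreceptor, stood at 122 and 111 CPM, 1.10-fold lower (1.02 to 1.18). Relative to Sdc2, the KO over WT ratio was 24.9 times as large for Sdc3 (13.9 to 47.5), 22.9 times for Sdc1 (13.2 to 42.9) and 14.5 times for Sdc4 (8.34 to 27.1). Glypican 1 (Gpc1), held in the membrane by a lipid anchor, was level at 93.5 and 96.9 CPM, a ratio of 1.04 (0.959 to 1.12). The sign of its difference turned when total counts set the scale. Other glypicans, outside the followed set, were lower. Gpc4 stood at 6.29 CPM in WT and 0.778 CPM in KO, 8.09-fold lower (4.37 to 16.3). Gpc6 stood at 6.54 and 0.519 CPM, 12.6-fold lower (6.10 to 30.2). Gpc3 had 1 read in WT and 0 in KO, too few to compare. Any contrast between cell surface and secreted proteoglycans therefore depends on which genes are listed.

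**Figure D2:**
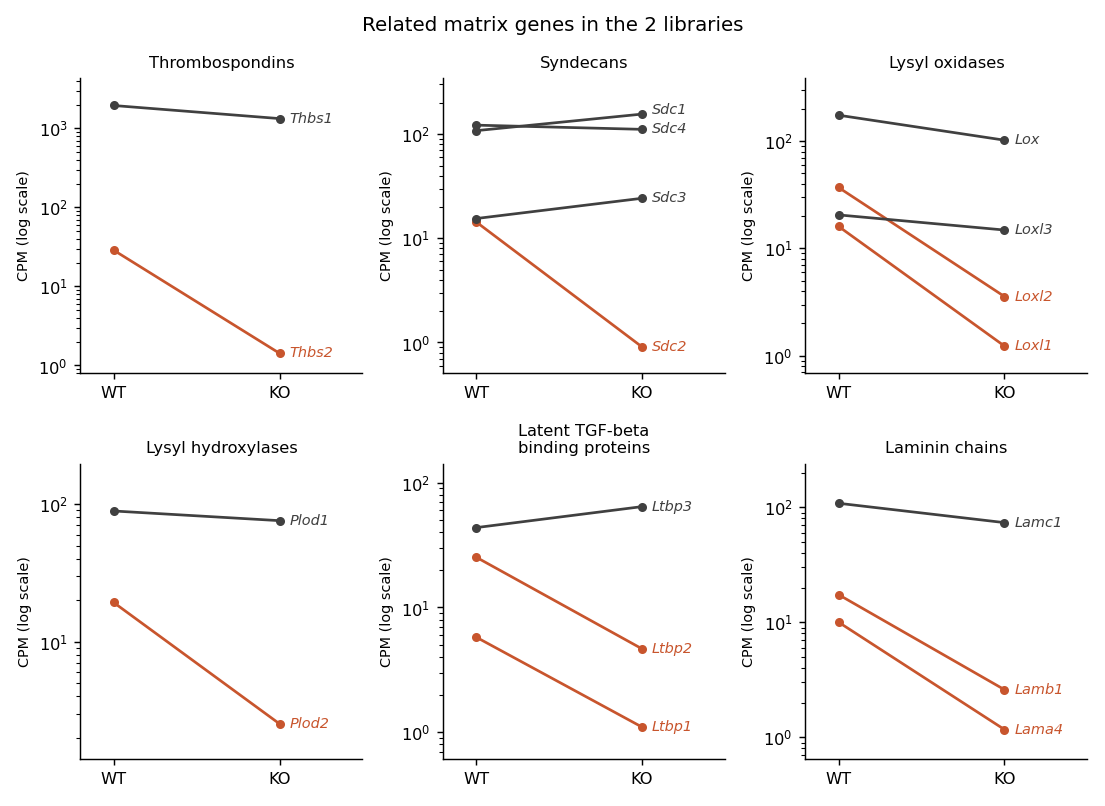
CPM (log axes, scaled per panel) in the WT and KO libraries for 6 groups of related genes; orange lines are genes at least 2-fold lower in KO and grey lines are genes within 2-fold. The groups were chosen after their values were seen, and each holds genes of both kinds. Related genes that were all at least 2-fold lower, such as Nid1 and Nid2 or Tnc and Tnn, are not drawn. Among the syndecans in KO, Sdc2 stands at 0.907 CPM and Sdc1, Sdc3 and Sdc4 at 24.2 CPM or more.

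Enzymes that modify lysines in collagen and elastin split evenly, 3 lower and 3 within 2-fold. Lox (lysyl oxidase) stood at 174 CPM in WT and 102 CPM in KO, 1.71-fold lower (1.60 to 1.83). Loxl1, which acts on elastin, stood at 16.1 and 1.23 CPM, 13.04-fold lower (8.13 to 22.1). Loxl2, a crosslinker of collagen IV, stood at 37.0 and 3.56 CPM, 10.4-fold lower (7.83 to 14.001). Loxl3 stood at 20.5 and 14.8 CPM, 1.38-fold lower (1.15 to 1.66). The ratio of Lox was 7.63 times that of Loxl1 (4.73 to 13.005) and 6.07 times that of Loxl2 (4.54 to 8.25). Loxl3 shares 535 exon bases with Htra2 on the opposite strand, a gene at 43.9 and 43.7 CPM, and the strand setting of the counting is not given in the sources used here.

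Lysyl hydroxylases prepare collagen for crosslinking. Plod1 stood at 89.2 CPM in WT and 75.8 CPM in KO, 1.18-fold lower (1.08 to 1.28). Plod2, which hydroxylates the telopeptides and sets the stable crosslinks of scar and bone, stood at 19.3 and 2.53 CPM, 7.63-fold lower (5.42 to 11.01). The ratio of Plod1 was 6.49 times that of Plod2 (4.55 to 9.45). These pairs of related genes were chosen after their values were seen, and their intervals cover counting error in these 2 libraries only.

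The 28 lower genes together summed to 1669 CPM in WT and 380.0 CPM in KO, as follows from how they were grouped. The 11 genes within 2-fold summed to 2722 and 2049 CPM, and without Thbs1 their sums were 776 and 719 CPM. Genes within 2-fold accounted for 62.0% of the summed CPM of the 40 genes in WT and 84.4% in KO. This rise also follows from the grouping. Without Thbs1, the other 10 of them made up 17.7% of the same sum in WT and 29.6% in KO. By level per kilobase of exon, Sparc ranked 4 of 40 in WT, at 47.8 CPM per kb, and came to 4.004 in KO. Bgn went from 23.1 to 2.41 CPM per kb. In the KO library the genes above 20 CPM per kb were Thbs1, Sdc4 (43.7), Sdc1 (40.9), Tgfbi (31.4) and Lox (21.4).

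The ratios of the matrix genes were set beside those of the stromal markers. The 14 stromal markers with reads in KO ran from 1.04-fold lower for Thy1 to 17.9-fold lower for Acta2, and 32 of the 39 matrix genes had a ratio inside that range. Thy1, at 3.23 CPM in WT, widens it to take in nearly level genes such as Sdc4 (1.10-fold lower) and Plod1 (1.18-fold lower). The share of all genes inside that range was not counted, so the 32 does not set matrix genes apart from others. The ratio of the summed markers lay in the counting interval of 12 genes, among them Sparc, Postn, Tnc, Fbln2, Sdc2, Loxl1 and Loxl2. For 25 genes the whole interval lay above it, meaning a smaller drop or none. They include Fn1, Tgfbi, Vcan, Efemp2, Dcn and the 11 genes within 2-fold. Thbs2 and Tnn were the 2 genes whose intervals lay below it. With Col1a1 and Col1a2 left out of the sum, these counts were 15, 22 and 2, since the intervals of Bgn, Hspg2 and Plod2 then held it. The markers themselves also spread around their full sum. The intervals of Pdgfra (4.94 to 10.6-fold lower), Pdgfrb (3.66 to 6.63), Thy1 and Fap lay above its ratio. Those of Acta2 (13.2 to 24.8) and Col5a1 (12.2 to 18.5) lay below it. A place above or below the sum therefore does not set a matrix gene apart from the stromal markers.

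**Figure D3:**
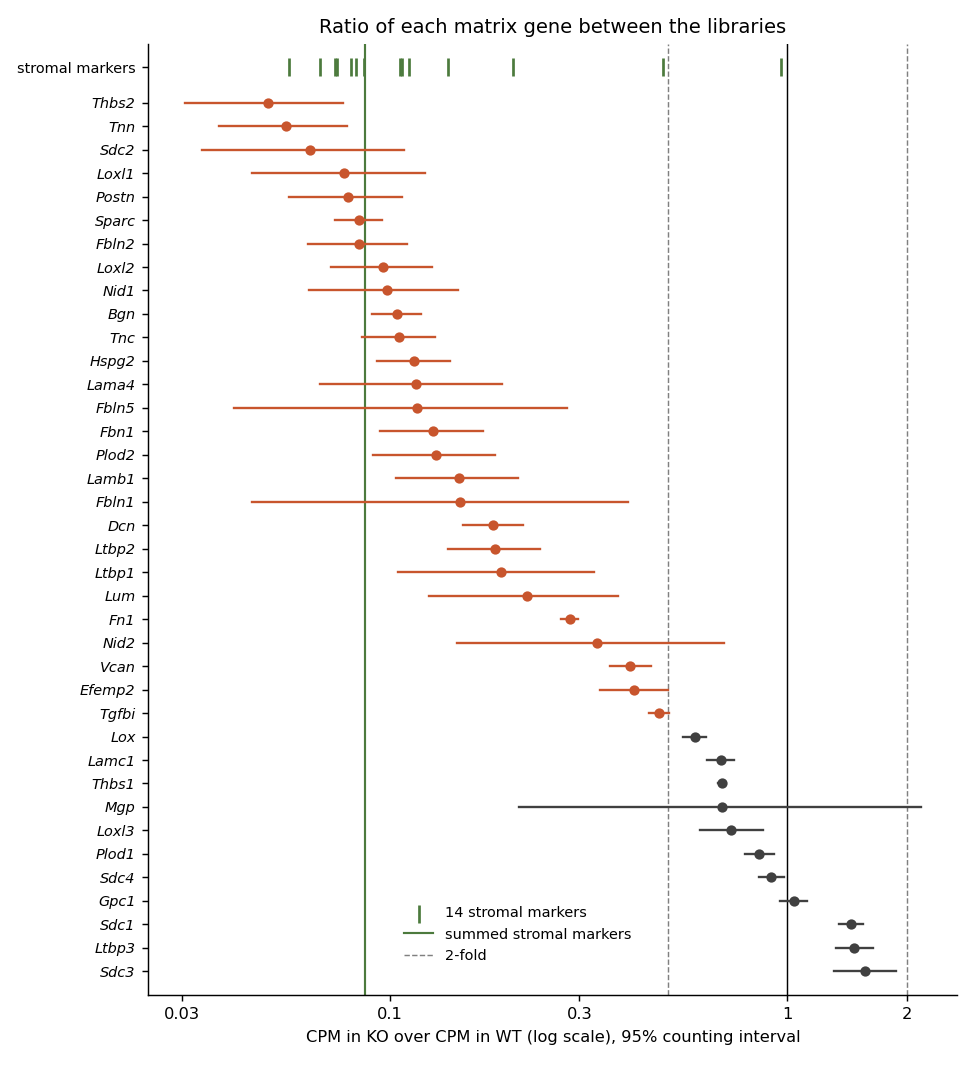
Ratio of CPM in KO over WT (log axis) for the 38 matrix genes with reads in both libraries, with 95% counting intervals; orange marks genes at least 2-fold lower, green ticks the 14 stromal markers with reads in KO and the green line the ratio of the summed markers. Ratios run from Thbs2, 20.2-fold lower, to Sdc3 at 1.57, and the intervals of 12 genes, Fmod included though not drawn, hold the green line.

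Monocyte markers were also lower in part, and Fn1 and Vcan are made by monocytes. Of 8 monocyte markers 3 were at least 2-fold lower, F13a1 (413 CPM in WT and 139 in KO), Ccr2 and Cx3cr1, and the 8 summed to 768 and 400 CPM, where Chil3 is shared with other myeloid states. Megakaryocyte and platelet markers, whose cells store Thbs1 and Sparc, summed to 15.7 and 10.2 CPM, with 0 of 8 at least 2-fold lower and Pf4 at 3.56 and 3.05 CPM. Endothelial markers summed to 52.2 and 56.5 CPM, with 3 of 8 lower. Vwf, which platelets also carry, was 17.8 and 32.1 CPM of those sums, and the other 7 summed to 34.4 and 24.4 CPM. Of the 6 osteoblast markers with reads, 2 were lower, Alpl (16.4 and 0.52 CPM) and Sp7 (3.97 and 0.259 CPM), while Bglap and Dmp1 were at 0 in both libraries. Adipocyte markers were at 0 apart from Plin4, with 3 and 2 reads. Chondrocyte markers summed to 1.99 and 0.713 CPM, with Acan at 0. Neutrophil markers summed to 683 and 497 CPM (3 of 8 lower), B cell markers to 12.6 and 2.46 CPM (5 of 5 lower), and T and NK cell markers to 23.1 and 35.0 CPM (0 of 6 lower). The part of these cell types in the matrix result was not tested.

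Genes for other steps of matrix assembly were counted in lists of their own. Collagen chains, the partners of these glycoproteins in fibres, were lower in 16 of 17 cases with a median log2 ratio of -3.07, and 5 of the 17 are also stromal markers. Col5a1, Col3a1 and Col1a1 were 15.0-fold, 12.5-fold and 12.1-fold lower. Col18a1, the precursor of endostatin, was the exception, at 108 CPM in WT and 94.95 CPM in KO. Collagen processing genes divided, with 7 of 16 lower and 0 higher. Serpinh1, the collagen chaperone HSP47, was 12.3-fold lower (9.89 to 15.5), and Fkbp10 and Adamts2 were 12.6-fold and 12.8-fold lower. P4hb, which also folds many other secreted proteins, stood at 476 and 442 CPM.

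Of the 12495 genes whose mean reached 1 CPM, 94.03% lay within 2-fold. Of 21 matrix receptors 15 were within 2-fold, 5 lower and 1 higher, with a median log2 ratio of -0.08. Over the 16 receptors whose mean reached 1 CPM, 2 were lower and 1 higher, with a median of 0.22, and the other 3 lower ones, Itga3, Itga7 and Ddr1, had 16 reads or fewer in each library. The collagen receptors Itga11 and Ddr2 were 16.9-fold and 11.9-fold lower, Itgav, the fibronectin and vitronectin receptor chain, was 1.68-fold lower (1.60 to 1.77), and Itga9, a receptor for tenascin C, stood at 12.9 CPM in WT and 29.4 CPM in KO. Cd36 and Cd47, receptors of Thbs1, stood at 1562 and 2398 CPM and at 203 and 270 CPM. Of 25 genes for glycosaminoglycan synthesis 2 were lower, 1 higher and 22 within 2-fold. Has2, a hyaluronan synthase, had 89 reads in WT and 6 in KO, and Ust, which sulfates uronic acids, stood at 5.88 and 19.4 CPM. Chst11, a chondroitin sulfotransferase, stood at 36.8 and 66.9 CPM. In the TGF-beta list 3 of 15 genes were lower and 0 higher. Tgfb2 was 8.84-fold lower (4.80 to 17.8), and Tgfb1 stood at 340 and 403 CPM, while the inhibitor Smad7 had a log2 ratio of -0.98 and the receptor Tgfbr2 of -0.68. Of 26 further matrix proteins with reads, 9 were lower and 0 higher. The laminin chain Lamb2 and the secreted Ecm1 were 4.06-fold and 1.57-fold lower, and the abundant Gpnmb and Spp1 (osteopontin) had log2 ratios of 0.23 and 0.58.

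**Figure D4:**
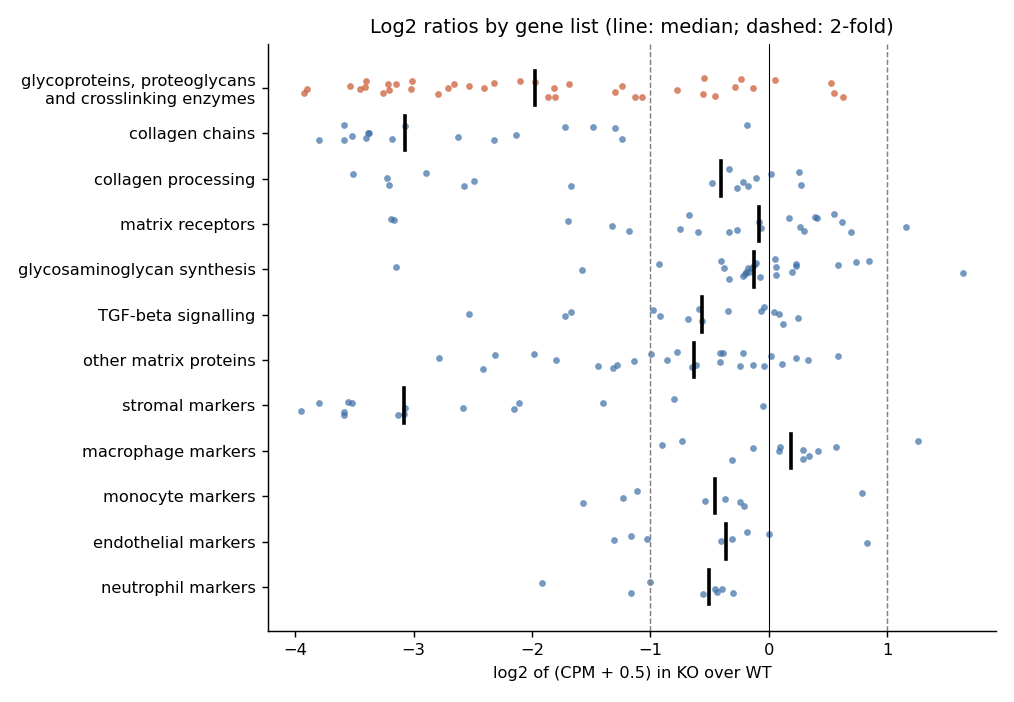
Log2 ratio of KO over WT, after adding 0.5 CPM, for each gene with reads (points) in 12 lists, with the median of each list (black line) and the 2-fold limits (dashed). The 39 matrix genes (orange) spread from -3.93 to 0.63. Their median, -1.97, lies between those of the collagen chains, -3.07, and the receptors, -0.08.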

How the data were processed

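RNA of macrophages was sequenced, and the deposited values are raw read counts per gene symbol, per the file headers. The submitters' processing notes name HISAT2 and GRCm38. Not given in the sources used here are the counting program, the annotation and the strand setting. Counts were scaled to CPM with TMM effective library sizes (edgeR 4.0.16, R 4.3.3). Log2 ratios compare KO with WT after 0.5 CPM was added to both. Fold changes without it carry exact Clopper-Pearson 95% intervals of the split of reads (scipy 1.17.1). PCR reads without molecular identifiers are not independent, so intervals and floors cover counting error only. A floor of 3 reads is 0.248 CPM in WT and 0.194 CPM in KO. With 1 library per genotype no p-value was computed. DESeq2 1.42.0 size factors, total counts, other added values, filters and fold limits were tried. The calculation was tested on simulated data. Positions and union exon lengths come from GENCODE M21 on GRCm38, promoters from RefSeq on GRCm38.p6. Exons of 16 of the 40 genes share bases with another gene. Among them are Fbn1 with 2442 bases (20.1% of its exon bases), Gpc1 with 977, Ltbp2 with 764 and Loxl3 with 535. The genes, lists and motifs were chosen with earlier results of these data known. All 40 genes are named, with up to 3 genes of other lists by size of ratio at a mean of at least 5 CPM. Col18a1, P4hb, Cd36, Cd47, Gpc3, Gpc4, Gpc6, Itga11, Has2, Tgfb1, Tgfb2, Gpnmb and some markers were named after their values were seen. A gene of the TGF-beta list is not reported here.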

Additional observations from a re-analysis of the deposited data

How the results depend on the processing

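No paired analysis was possible because there was a single library per genotype, so leaving out a library was not possible either. The 28 matrix genes at least 2-fold lower were 28 with total counts, DESeq2 size factors or 0.1 CPM added, 25 with 2 CPM added, 29 at a 1.5-fold limit and 25 when the interval bound had to reach 2-fold. Where the mean had to reach 10 CPM, 17 of 27 were lower, because fewer genes entered. No matrix gene was 2-fold higher under any of these settings, and 1, Sdc3, was at least 1.5-fold higher. The median log2 ratio was -1.33 with 2 CPM added and -1.82 over genes whose mean reached 10 CPM. Of 156 recomputed ratios of single genes, 134 stayed inside their counting interval, widened to the reported log2 ratio where that lay outside it. The ratio of 1 gene, Gpc1, changed sign. Over all genes, the counts of lower and higher genes, 494 and 252, became 313 and 156 with 2 CPM added, 92 and 112 where the mean had to reach 10 CPM, and 928 and 826 at 1.5-fold. With the interval bound at 2-fold 133 were higher. Depth limits Fbln1, Fbln5, Fmod, Mgp and Nid2, which had 40 reads or fewer in each library.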
